A study of Mus musculus with 21 samples.

Results

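The 10 genes described here encode enzymes and helpers that modify, fold and crosslink collagen in the uterus: the lysyl oxidases Lox, Loxl1 and Loxl2, the lysyl hydroxylases Plod1, Plod2 and Plod3, the prolyl 4-hydroxylase alpha subunits P4ha1 and P4ha2, the collagen chaperone Serpinh1 and the procollagen processing enhancer Pcolce. They were chosen by function, by symbol, with earlier results of these data known, and all 10 were found among the 12791 genes listed. RNA was sequenced from the whole uterus of mice of the inbred strain C57BL/6J, all wild type, at 5 weeks of age (7 libraries), 8 weeks of age (7 libraries) and in old age (6 libraries). All mice, in every age group, had received pregnant mare serum gonadotropin, a hormone that stimulates ovarian follicles, 48 hours before dissection, at 5 or 7.5 units, and which animal got which dose is not given here. The old mice, called aged below, were 60 to 75 weeks old in an earlier set of libraries (replicates 1 and 2 of each age) and 79 weeks old in a later set (replicates 3 to 7).

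Collagen chains are modified while they are made. In the endoplasmic reticulum, prolyl 4-hydroxylases hydroxylate prolines, which keeps the collagen helix stable at body temperature, lysyl hydroxylases hydroxylate lysines, and Serpinh1 (HSP47) binds the folded helix until export. Outside the cell, the propeptides are cut off, with Pcolce speeding the removal of the carboxy-terminal one, and lysyl oxidases, which need copper, convert lysines and hydroxylysines to the aldehydes from which crosslinks form. Which lysines were hydroxylated decides which crosslinks form, and collagen of the uterine wall is laid down and removed as the organ grows, cycles and carries pregnancies.

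Values were deposited as CPM, the reads of a gene scaled to the same fixed total in every library. The later set was deeper, with 19100690 to 30689439 reads a library (14 libraries), than the earlier one, with 12204573 to 14448283 (6 libraries), and every listed gene had at least 10 reads in every library. Columns were assigned by their headers. In 15 of 20 files with values the header differs from the sample the file belongs to, and in 2 of them (5w replicate 3 and 8w replicate 3) it gives another age group. In 2 others (aged replicate 2 and aged replicate 5) it gives the other set, so their set, a term of the fit, also rests on the header. The sets could differ in instrument, kit, read layout and, for aged mice, age, which cannot be told apart. Both 60-base single reads and 150-base paired reads are given for every library, without saying which applies. Nothing in the labels says how the replicates of a group are related, so p-values measure the spread between these libraries. The uterine identity list, with Esr1, Pgr and Hoxa10 among its 8 genes, was present throughout, at a summed 647 to 1506 CPM at 5 weeks, 767 to 1403 CPM at 8 weeks and 919 to 1645 CPM in aged uteri.

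Of the 10 genes, Loxl2 and Plod2 fell in aged uteri, against 8-week and also against 5-week uteri, and none rose. A gene was called where the adjusted p of limma, a linear model fitted to log2(CPM + 1) over all genes with age and set as terms, was under 0.05. Against 8 weeks, 17.2% of all genes tested were called, 8.53% as lower and 8.64% as higher, and against 5 weeks 22.1% were called, 9.41% as lower and 12.7% as higher. The 2 of 10 called are near these shares in either comparison, so the count alone sets nothing apart about the group. The median log2 fold change of the 10 was -0.32 against 8 weeks, where that of all genes was 0.05, and -0.35 against 5 weeks, where that of all genes was 0.09. Both comparisons use the same aged libraries. Between 8 and 5 weeks none of the 10 was called, and the share of all genes was 0.0%, with 139 genes and none of the 10 at an unadjusted p under 0.05. In whole tissue, fewer cells of a type and less RNA per cell cannot be told apart.

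**Figure D1:**
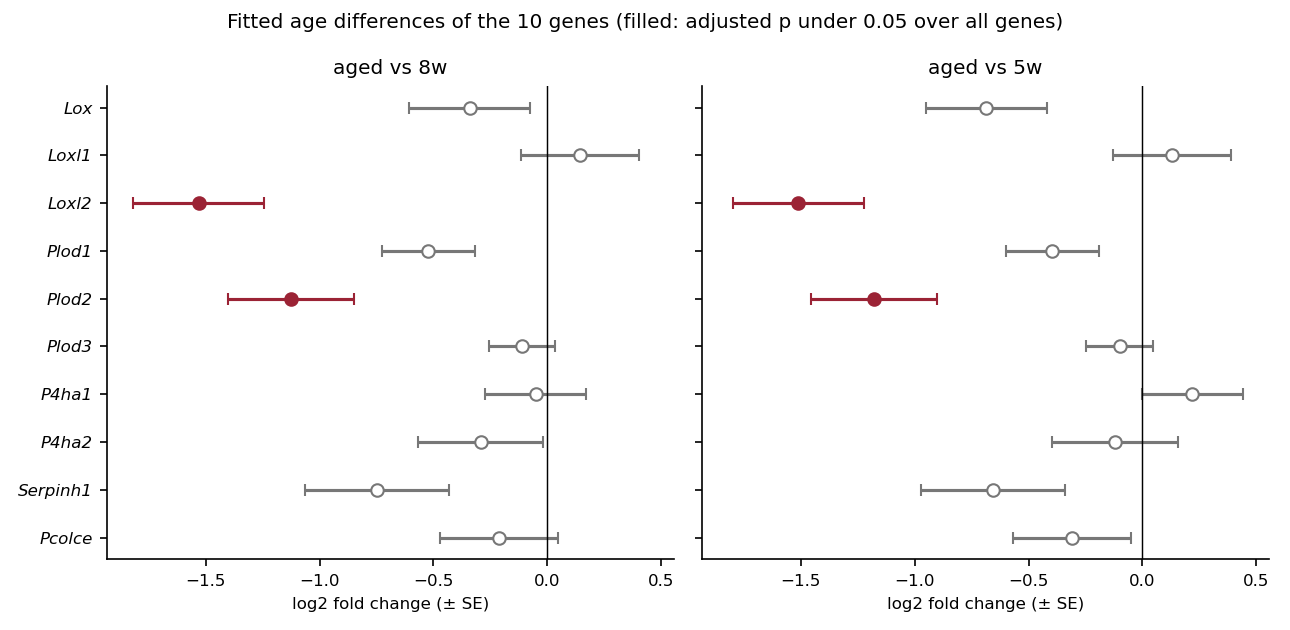
Log2 fold change of each of the 10 genes in aged against 8-week uteri and in aged against 5-week uteri, with SE as bars and filled points for an adjusted p under 0.05 over all genes. Loxl2 and Plod2 lie farthest below 0 in both comparisons, at -1.53 and -1.12 against 8 weeks.

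Among the lysyl oxidases, Loxl2 was the one that passed the test between ages. Loxl2, an oxidase that also acts on the type IV collagen of basement membranes, lies on chromosome 14 from 69609068 to 69695834 on the plus strand (GRCm38). Its RNA level had a lowest value, median and highest value of 33.7, 93.4 and 187 CPM at 5 weeks, 48.2, 89.8 and 171 CPM at 8 weeks, and 19.5, 30.2 and 35.3 CPM in aged uteri. All 6 aged libraries lay below every 8-week library, and 4 of 6 lay below every 5-week library. Such a gap between groups, lower in aged, was found for 1.02% of all genes against 8 weeks, and for Loxl2 alone among the 10. Against 5 weeks it was found for 1.43% of all genes and for none of the 10. The means were 30.0 ± 5.76 CPM in aged uteri (SD, n = 6) and 91.8 ± 40.2 CPM at 8 weeks (SD, n = 7), a log2 fold change of -1.53 ± 0.29 (SE, limma adjusted p = 0.00159). At 5 weeks the mean was 96.8 ± 53.9 CPM, which put aged uteri lower by a log2 fold change of -1.51 ± 0.29 (limma adjusted p = 0.00125). On the CPM scale the aged libraries were also closer to each other than those of either younger group. Without 5w replicate 3 and 8w replicate 3 the log2 fold changes were -1.52 against 8 weeks and -1.55 against 5 weeks. With columns assigned by file in place of header these were -1.34 and -1.38 (limma adjusted p = 0.0253 and 0.00565). By file 5w replicate 3 counts as aged. Its 61.1 CPM exceeds the 48.2 CPM of 8w replicate 4, so the aged and 8-week groups then overlap. Of the exon length of Loxl2, 5.57% is shared with Gm27177 on the other strand, and the library kit does not mark strand.

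Lox, the founding oxidase, which crosslinks collagen and elastin, had lowest, median and highest levels of 58.0, 128 and 245 CPM at 5 weeks, 54.7, 87.9 and 232 CPM at 8 weeks and 58.4, 71.5 and 128 CPM in aged uteri. The 3 ages overlapped, and 2 younger libraries of the earlier set were the highest in their groups. Neither comparison passed the test: the log2 fold change was -0.34 ± 0.27 for aged against 8-week uteri (limma adjusted p = 0.398) and -0.69 ± 0.27 against 5-week uteri (limma adjusted p = 0.0689). The second passed when 5w replicate 3, the 5-week library with the lowest Lox, was left out (log2 fold change -0.83, limma adjusted p = 0.0239).

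Loxl1, an oxidase tied to elastic fibres, lies on chromosome 9 from 58287738 to 58313186 on the minus strand. It had 21.9, 67.0 and 153 CPM at 5 weeks, 41.0, 43.2 and 109 CPM at 8 weeks and 39.5, 57.0 and 133 CPM in aged uteri (lowest, median and highest). The groups overlapped, and Loxl1 was the one gene of the 10 with a positive log2 fold change against 8 weeks, 0.14 ± 0.26 (limma adjusted p = 0.742). Mice that lack Loxl1 are known for pelvic organ prolapse after giving birth. Within libraries, the ratio of Loxl2 to Loxl1 in CPM had a median of 1.40 at 5 weeks (0.837 to 3.16), 1.57 at 8 weeks (0.643 to 2.39) and 0.498 in aged uteri (0.223 to 0.723). The aged ratios lay below every 5-week ratio and overlapped the 8-week ones. The share of gene pairs with such a gap is not given here. The median ratio also differed by set, at 0.274 in the earlier and 0.532 in the later set in aged uteri. At 5 weeks it was 1.12 and 1.54. The ratio of Loxl2 to Lox had medians of 0.764, 0.966 and 0.401 in the same order of ages, with overlapping ranges.

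**Figure D2:**
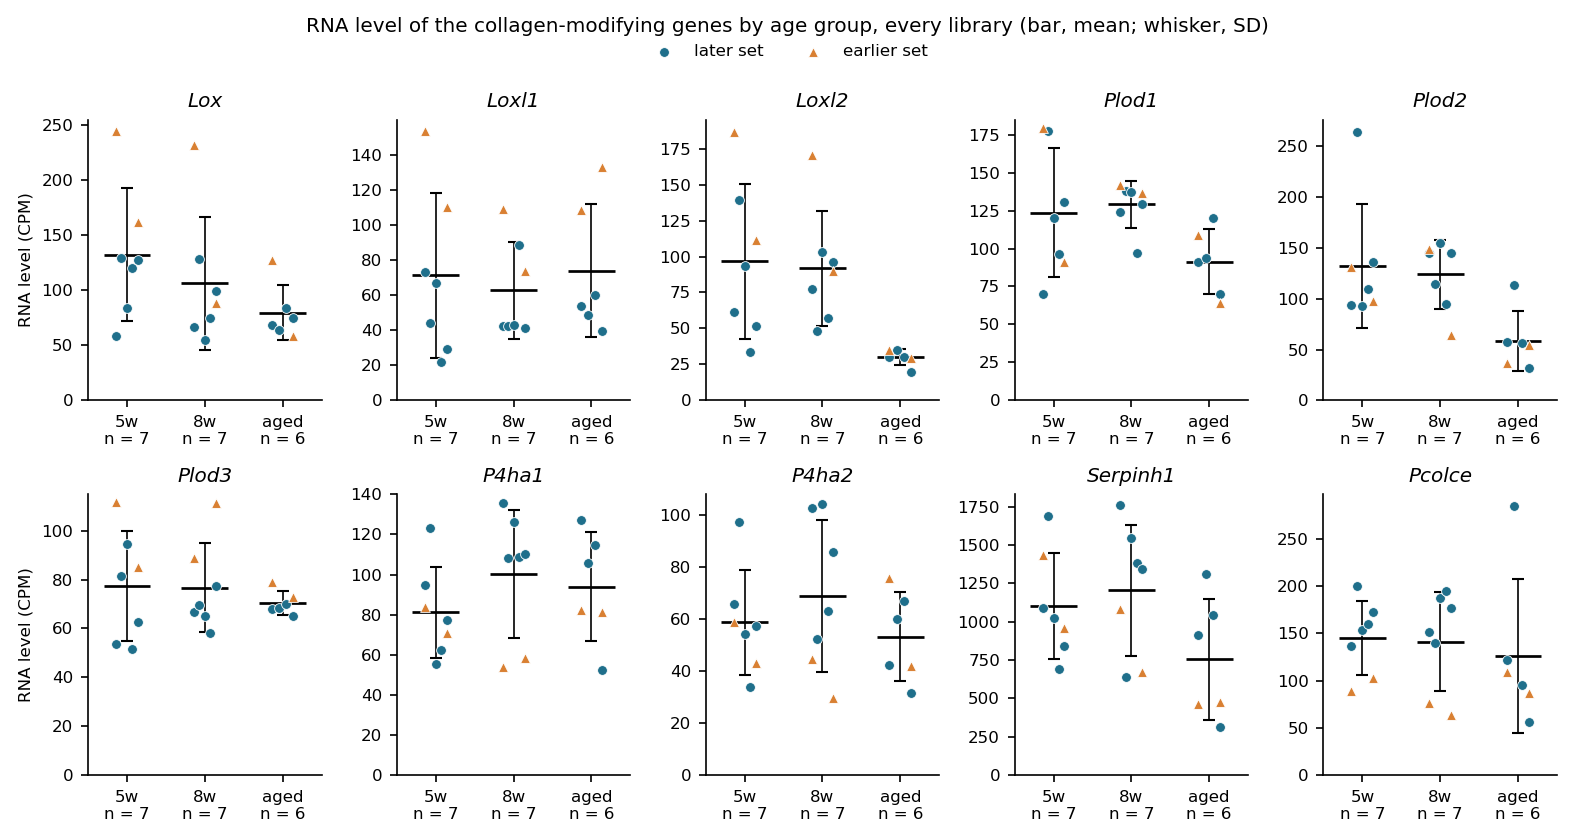
RNA level in CPM of each of the 10 genes in every library at 5 weeks, at 8 weeks and in aged uteri, with circles for the later and triangles for the earlier set, bars for the mean and whiskers for the SD. The 6 aged Loxl2 points lie between 19.5 and 35.3 CPM, and 5 of 6 aged Plod2 points lie below all younger points.

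Of the lysyl hydroxylases, Plod2 differed with age by the test and Plod1 and Plod3 did not. Plod2 hydroxylates lysines in the collagen telopeptides, the ends where crosslinks start, and lies on chromosome 9 from 92542223 to 92608428 on the plus strand. It had 92.5, 109 and 265 CPM at 5 weeks, 64.8, 145 and 155 CPM at 8 weeks and 32.0, 55.3 and 114 CPM in aged uteri (lowest, median and highest). Of the 6 aged libraries 5 lay below every younger library, and the other, aged replicate 5, lay among them at 114 CPM. The means were 58.4 ± 29.1 CPM in aged uteri (SD, n = 6) and 124 ± 34.0 CPM at 8 weeks (SD, n = 7), a log2 fold change of -1.12 ± 0.28 (limma adjusted p = 0.00941). Against the 5-week mean of 132 ± 60.9 CPM the log2 fold change was -1.18 ± 0.28 (limma adjusted p = 0.00526). Without 5w replicate 3 and 8w replicate 3 the log2 fold changes were -1.09 against 8 weeks and -1.26 against 5 weeks. With columns assigned by file in place of header, Plod2 did not pass against 8 weeks (-0.98, limma adjusted p = 0.0674). Gm38391, on the other strand, shares 6.42% of the exon length of Plod2.

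Plod1, which hydroxylates lysines within the helix and lies on chromosome 4 from 147909753 to 147936767 on the minus strand, averaged 91.4 ± 21.5 CPM in aged uteri and 129 ± 15.5 CPM at 8 weeks. Of 6 aged libraries 4 lay below every 8-week library. The log2 fold change of -0.52 ± 0.20 did not pass the test (limma adjusted p = 0.0832), nor did that of -0.40 ± 0.20 against the 5-week mean of 124 ± 42.4 CPM (limma adjusted p = 0.168). Plod3, which also carries glycosyltransferase activity that adds sugars to hydroxylysine, lies on chromosome 5 from 136987019 to 136996648 on the plus strand. It averaged 77.3 ± 22.4 CPM at 5 weeks, 76.7 ± 18.2 CPM at 8 weeks and 70.6 ± 4.91 CPM in the aged group, with log2 fold changes of -0.11 ± 0.15 against 8 weeks and -0.10 ± 0.15 against 5 weeks (limma adjusted p = 0.633 and 0.652). Znhit1, on the other strand, shares 11.7% of its exon length. The ratio of Plod2 to Plod1 in CPM had a median of 1.07 at 5 weeks, 1.05 at 8 weeks and 0.550 in aged uteri, and that of Plod2 to Plod3 one of 1.76, 1.68 and 0.775 at these ages. All of these ranges overlapped.

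The prolyl 4-hydroxylase alpha subunits, which carry the catalytic site and pair with P4hb, did not pass the test in any age comparison. P4ha1 (chromosome 10, 59323296 to 59373304, plus strand) had mean levels of 81.1 ± 22.8 CPM (5 weeks), 100.2 ± 31.8 CPM (8 weeks) and 94.0 ± 27.3 CPM (aged), and its log2 fold change was -0.05 ± 0.22 against 8 weeks and 0.22 ± 0.22 against 5 weeks (limma adjusted p = 0.902 and 0.506). P4ha2 (chromosome 11, 54100095 to 54131665, plus strand) had mean levels of 58.6 ± 20.0, 68.8 ± 29.1 and 53.0 ± 17.0 CPM at 5 weeks, at 8 weeks and in aged uteri, with log2 fold changes of -0.29 ± 0.28 against 8 weeks and -0.12 ± 0.28 against 5 weeks (limma adjusted p = 0.491 and 0.785). Across the 20 libraries their levels had Pearson's r = 0.69 after each set's mean was removed, with age left in. Among the 10 genes Loxl2 and Plod2 ran closest, at 0.86. The part of the hypoxia-inducible factor in the levels of the 10 genes was not tested, and P4ha1 and P4ha2 are among its textbook targets. Their promoters are shown because the core of that factor's element, ACGTG or GCGTG, occurs in both: 250 bases before the RefSeq start on GRCm38.p6, plus strand, chr10:59323046-59323295 for P4ha1 and chr11:54100674-54100923 for P4ha2, with capitals for the core on either strand.
P4ha1: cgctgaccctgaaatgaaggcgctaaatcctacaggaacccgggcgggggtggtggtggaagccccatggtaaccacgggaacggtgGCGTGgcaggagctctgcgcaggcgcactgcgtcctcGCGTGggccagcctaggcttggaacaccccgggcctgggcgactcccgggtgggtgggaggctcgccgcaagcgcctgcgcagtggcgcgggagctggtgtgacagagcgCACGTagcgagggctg
P4ha2: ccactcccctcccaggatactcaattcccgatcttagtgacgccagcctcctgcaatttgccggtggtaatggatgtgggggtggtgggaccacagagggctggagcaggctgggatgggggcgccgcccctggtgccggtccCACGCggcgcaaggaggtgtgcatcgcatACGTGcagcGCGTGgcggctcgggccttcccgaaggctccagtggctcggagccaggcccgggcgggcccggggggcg
P4ha1 held 3 matches, with first bases at positions -163, -126 and -16 from the start, and P4ha2 held 3, at positions -107, -78 and -69. The P4ha2 window precedes the RefSeq start but lies inside the gene by the coordinates above, which begin at 54100095. Such short matches are common: 38.6% of 32851 promoter windows of the same length held at least 1. Of the 6 genes of the group with a promoter sequence at hand, Plod3 held 4 matches, and Plod1, Serpinh1 and Pcolce held 1 each. No promoter sequence was at hand for Lox, Loxl1, Loxl2 and Plod2, so neither gene called between ages is covered. The Pcolce window also lies inside its gene. A match is a string of letters, not a site of binding.

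Serpinh1, on chromosome 7 from 99345376 to 99353239 on the minus strand, was the most abundant of the 10. It had 690, 1021 and 1689 CPM at 5 weeks, 640, 1342 and 1757 CPM at 8 weeks and 311, 694 and 1310 CPM in aged uteri (lowest, median and highest). Of 6 aged libraries 3 lay below every younger library, and the others lay among them. The means of 753 ± 395 CPM in aged uteri and 1203 ± 425 CPM at 8 weeks gave a log2 fold change of -0.75 ± 0.32, which did not pass the test (limma adjusted p = 0.107). It passed with aged replicate 5 left out, the aged library with the highest Serpinh1 (log2 fold change -0.93, limma adjusted p = 0.0439), and with 8w replicate 4 left out, the 8-week library with the lowest (-0.90, limma adjusted p = 0.0479). Without aged replicate 7, the aged library with the lowest, it was -0.49 (limma adjusted p = 0.255). Against the 5-week mean of 1103 ± 347 CPM the log2 fold change was -0.65 ± 0.32 (limma adjusted p = 0.14), and -0.40 without aged replicate 7 (limma adjusted p = 0.339).

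Pcolce, on chromosome 5 from 137605103 to 137613784 on the minus strand, averaged 145 ± 38.9 CPM at 5 weeks, 141 ± 52.7 CPM at 8 weeks and 126 ± 81.3 CPM in the aged group. Its aged libraries ran from 55.8 to 285 CPM and spanned all 14 younger ones. The log2 fold change was -0.21 ± 0.26 against 8 weeks and -0.31 ± 0.26 against 5 weeks (limma adjusted p = 0.607 and 0.414). Without aged replicate 5, the highest library, it was -0.45 against 8 weeks (limma adjusted p = 0.172), and without aged replicate 7, the lowest, it was 0.047. Against 5 weeks these were -0.54 (limma adjusted p = 0.086) and -0.0496 (limma adjusted p = 0.894).

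Per kilobase of exon, so that genes can be set side by side, Serpinh1 stood far above the rest, at 451 ± 142 CPM per kb at 5 weeks, 492 ± 174 at 8 weeks and 308 ± 162 in aged uteri. Pcolce came next at each age, at 37.9, 37.0 and 32.9 CPM per kb. The other 8 genes averaged 9.39 to 27.7 CPM per kb at 5 weeks, 11.0 to 24.3 at 8 weeks and 5.55 to 22.8 in aged uteri, and neighbours in this order differed by less than the larger of their SDs, except P4ha2 and the gene above it at 5 weeks and Loxl2 and P4ha2 in aged uteri. P4ha2 was the lowest at 5 and 8 weeks. In aged uteri Loxl2 was the lowest, at 5.55 ± 1.06 CPM per kb, below P4ha2 at 8.50 ± 2.73, after ranks of 8 at 5 weeks and 9 at 8 weeks. Plod2 ranked 4 at both younger ages and 8 in aged uteri.

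Within each set of libraries the differences of Loxl2 and Plod2 had the same direction. Loxl2 in aged against 8-week uteri differed by -1.35 on the log2 scale in the later set (4 aged and 5 younger libraries) and by -1.90 in the earlier set (2 and 2). Against 5 weeks these were -1.23 and -2.13. Plod2 differed by -1.12 in either set against 8 weeks, and by -1.11 in the later and -1.33 in the earlier set against 5 weeks. With the later set fitted alone, neither gene passed the test (limma adjusted p = 0.0751 for Loxl2 and 0.134 for Plod2 against 8 weeks, and 0.0632 and 0.084 against 5 weeks), and with the earlier set alone Loxl2 passed and Plod2 did not (0.0777 and 0.0596). Serpinh1 and Plod1 were lower in aged uteri in both sets, by -0.68 and -0.43 in the later and -0.87 and -0.73 in the earlier set against 8 weeks, without passing the test in the joint fit. Against 5 weeks Serpinh1 differed by -0.36 in the later and -1.32 in the earlier set, and it passed with the earlier set alone (limma adjusted p = 0.0328). P4ha1, P4ha2 and Pcolce differed from 8 weeks by -0.30, -0.69 and -0.52 in the later set and by 0.53, 0.61 and 0.48 in the earlier set. Plod3 differed from 8 weeks by 0.016 in the later and by -0.39 in the earlier set. The test of whether the age difference itself differed between sets called none of the 10. It called 0.0235% of all genes against 8 weeks and 0.0% against 5 weeks. Against 8 weeks 1 of the 10 had an unadjusted p under 0.05, as had 1855 of all 12791 genes. Against 5 weeks none of the 10 had one, where 1079 genes did. For P4ha2 that difference of differences was -1.31 ± 0.54 (limma adjusted p = 0.279), for Pcolce -1.01 ± 0.54 (limma adjusted p = 0.411) and for Loxl2 0.56 ± 0.62 (limma adjusted p = 0.712).

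**Figure D3:**
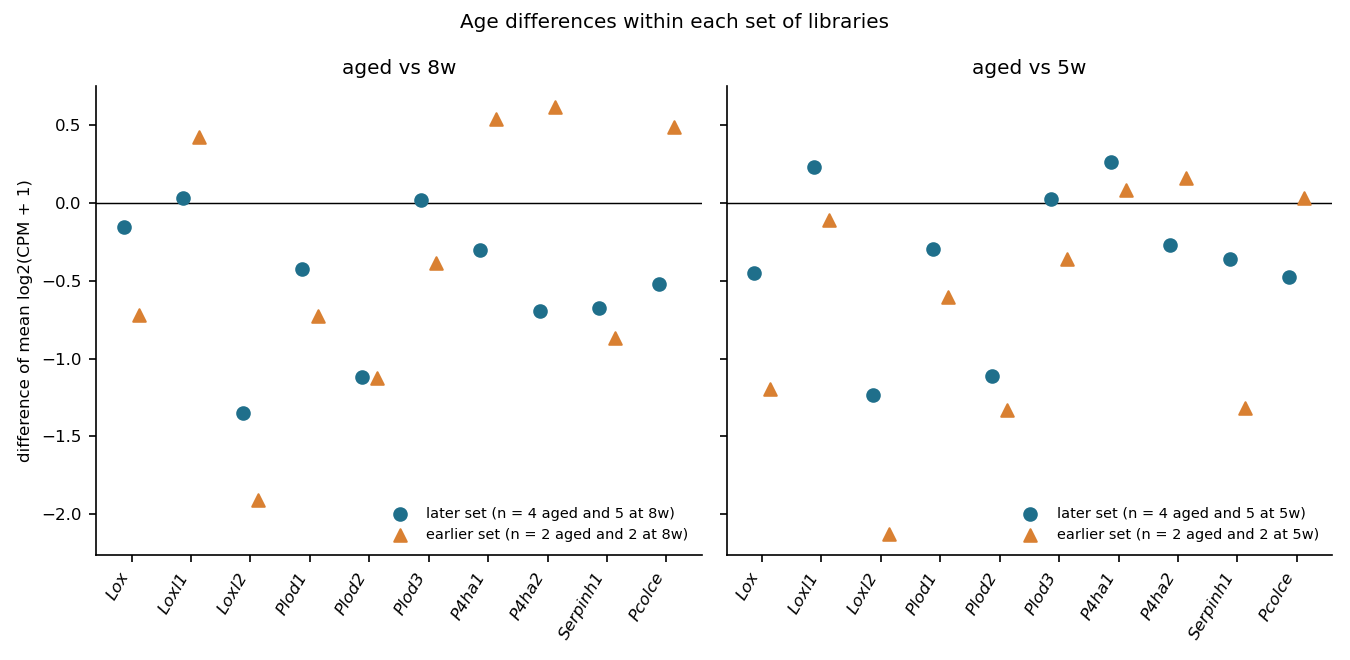
Difference in mean log2(CPM + 1) of each of the 10 genes between aged and 8-week and between aged and 5-week uteri, computed within the later and within the earlier set of libraries. Loxl2 and Plod2 lie below -1 in both sets and both comparisons, while P4ha1, P4ha2, Pcolce and Plod3 lie on opposite sides of 0 against 8 weeks.

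The sets themselves also differed, and the 10 genes were called no more often than all genes. Between the later and the earlier set, 5 of the 10 genes were called, 4 lower and 1 higher in the later set, where 58.7% of all genes were called, 38.3% lower and 20.5% higher. The median log2 fold change over all genes was -0.20 (0.03 under TMM scaling), and the values below stand against that shift. All 3 lysyl oxidases were lower in the later set, Loxl1 the most, at a log2 fold change of -1.23 ± 0.23 (limma adjusted p = 0.000155), followed by Lox at -0.70 ± 0.23 and Loxl2 at -0.69 ± 0.25. Plod3 was lower too, at -0.43 ± 0.13, and Pcolce was higher, at 0.78 ± 0.23 (limma adjusted p = 0.00675). The calls of Lox, Loxl2 and Plod3 were lost under TMM and under quantile scaling, while those of Loxl1 and Pcolce were kept. Under TMM scaling P4ha1 and P4ha2 passed as higher in the later set, at log2 fold changes of 0.68 and 0.61 (limma adjusted p = 0.00671 and 0.0268). Under quantile scaling P4ha1, P4ha2 and Plod2 passed, at 0.80, 0.71 and 0.65 (limma adjusted p = 0.00363, 0.0149 and 0.0351). The split of calls was thus 1 lower and 3 higher under TMM, and 1 lower and 4 higher under quantile scaling. The share of all genes called between sets under these scalings is not given here. These splits therefore set nothing apart about the 10 genes.

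How alike the genes ran across libraries was described by Pearson's r of log2(CPM + 1) over the 20 libraries after each set's mean was removed. Age was left in, so genes that differ with age share it, and no test is attached. Among the 10, Loxl2 and Plod2 ran closest (r = 0.86), then Loxl2 with Serpinh1 (0.80) and Plod2 with Serpinh1 (0.78), and Lox and Loxl1 stood at the other end (-0.23). Over all listed genes, Loxl2 was nearest to Drp2, a dystrophin relative (r = 0.95), Adam12, a membrane metalloproteinase (0.94), and Exoc5, an exocyst subunit (0.93), with Spearman's rho of 0.95, 0.93 and 0.95. Adam12 also led for Plod2 (0.93), ahead of Ube2j1, an enzyme of protein degradation at the endoplasmic reticulum (0.93), and Gja1, the gap junction protein connexin 43 (0.92). Serpinh1 was nearest to Tubb6 (0.93), to P3h1, the collagen prolyl 3-hydroxylase (0.92), and to Pheta2 (0.91). Plod1 was nearest to Fbln2 (0.84), Col6a3 (0.81) and Col4a2 (0.80), all extracellular matrix proteins. The nearest gene reached r = 0.74 for Lox (Msc), 0.88 for Loxl1 (Sirpa), 0.85 for Plod3 (Slc7a7), 0.88 for P4ha1 (Nexn), 0.86 for P4ha2 (St6galnac4) and 0.88 for Pcolce (Epdr1).

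The genes that work beside these enzymes were counted list by list. Over all genes, 8.53% were called lower and 8.64% higher against 8 weeks, and 9.41% lower and 12.7% higher against 5 weeks. Of 10 fibrillar collagen genes listed, the main substrates, 2 fell and 1 rose in aged against 8-week uteri, with a median log2 fold change of -0.85, and 5 fell and 1 rose against 5-week uteri (-0.999). Col3a1 fell by 1.15 on the log2 scale against 8 weeks (SE 0.30, limma adjusted p = 0.0142) and Col5a1 by 1.20 (SE 0.36, limma adjusted p = 0.0265), while Col11a2, a minor fibrillar chain, rose by 0.56 (SE 0.19, limma adjusted p = 0.0475). Col1a2 fell by 0.89 against 5 weeks (SE 0.26, limma adjusted p = 0.0213). The summed level of the 10 genes was 3093 to 18126 CPM at 5 weeks, 3771 to 9830 CPM at 8 weeks and 1616 to 5889 CPM in aged uteri.

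Of 8 partners of lysyl hydroxylases and collagen glycosyltransferases, 1 fell against 8 weeks (list median -0.20) and against 5 weeks (-0.15): Fkbp14, a prolyl isomerase of the endoplasmic reticulum, with log2 fold changes of -1.44 ± 0.40 and -1.15 ± 0.40 (limma adjusted p = 0.0177 and 0.0431). Of 5 other prolyl hydroxylation genes, 1 fell against 8 weeks (list median -0.45), P3h1, with a log2 fold change of -0.84 ± 0.26 (limma adjusted p = 0.0297), and none was called against 5 weeks (-0.26). Of 5 procollagen proteinases and enhancers listed, of 7 named, 1 fell against 8 weeks (list median -0.35) and 2 against 5 weeks (-0.66). They were Adamts14, which removes amino-terminal propeptides, at -1.33 ± 0.35 and -1.54 ± 0.35 (limma adjusted p = 0.0146 and 0.00441), and, against 5 weeks, its relative Adamts2, at -0.74 ± 0.24 (limma adjusted p = 0.0329). Of 10 procollagen export genes 2 fell in both comparisons (list medians -0.28 and -0.27), the COPII coat genes Sec23a, at -0.74 against 8 weeks, and Sec13, at -0.65. The other lysyl oxidase listed, Loxl3, had a log2 fold change of 0.16 in both comparisons and was not called. Of all genes 8.53% were called lower against 8 weeks and 9.41% against 5 weeks. Beside these shares, counts of 1 or 2 in lists of 5 to 10 genes set nothing apart about a list.

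Among 5 genes that supply the cofactors copper and vitamin C, 1 fell against 8 weeks (list median -0.09), and 1 rose and 1 fell against 5 weeks (-0.13). Slc31a1, the copper importer CTR1, fell by 0.65 and 0.69 on the log2 scale in the 2 comparisons (limma adjusted p = 0.0202 and 0.0121). Slc23a1, a vitamin C transporter, rose by 1.06 against 5 weeks (limma adjusted p = 0.029). Of 17 hypoxia response genes, 2 rose and 3 fell against 8 weeks (list median -0.15), and 2 rose and 4 fell against 5 weeks (-0.33). Over all genes 17.2% were called against 8 weeks and 22.1% against 5 weeks, and no list was tested against these shares. The glycolytic genes Hk2, Ldha and Pgk1 fell by 1.23, 0.86 and 0.89 against 8 weeks, and Pfkfb3, which drives glycolytic flux, rose by 0.94. Pgk1 differed between sets by a log2 fold change of 3.10 in the later over the earlier set. Of 14 genes of these lists called against 8 weeks and 19 called against 5 weeks, 8 and 12 also passed with the earlier set alone, none with the later set alone, and 2 and 8 with columns assigned by file.

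**Figure D4:**
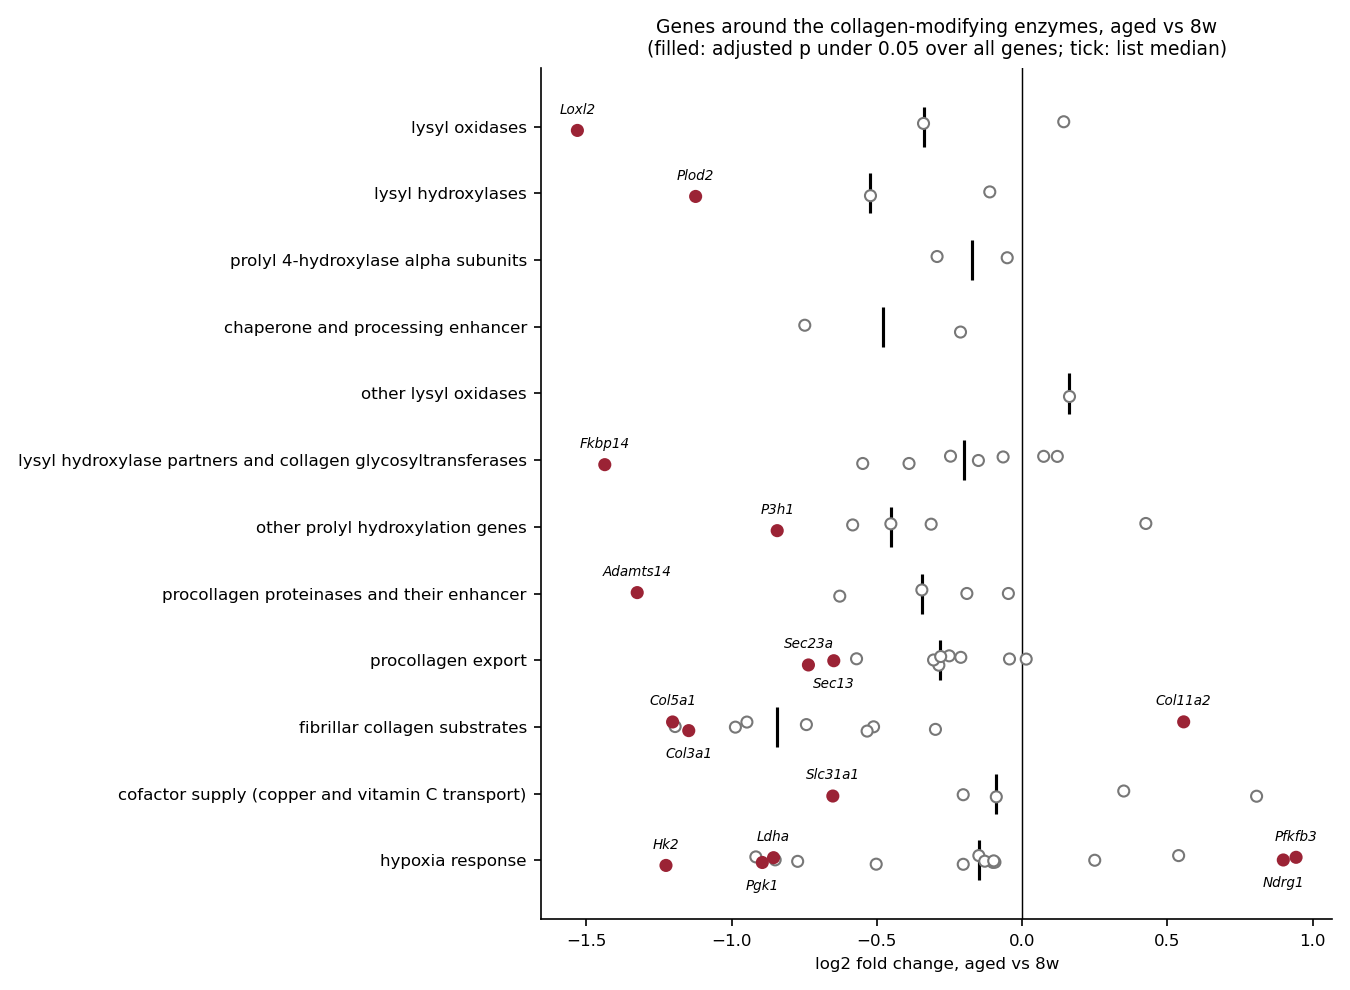
Log2 fold change in aged against 8-week uteri for the genes of each list, 1 point a gene, with ticks for list medians and filled, named points for an adjusted p under 0.05 over all genes. Called points lie below 0 in most lists, and Col11a2, Pfkfb3 and Ndrg1 lie above it. Of all genes 8.53% were called lower and 8.64% higher.

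Markers of cell types were read beside the changes of Loxl2 and Plod2. Over all genes, 8.53% were called lower and 8.64% higher against 8 weeks, and 9.41% lower and 12.7% higher against 5 weeks. All 7 cycling cell markers, such as Mki67 and Top2a, fell in aged uteri in both comparisons (median log2 fold change -3.06 against 8 weeks and -3.51 against 5 weeks), with summed levels of 269 to 1855 CPM at 5 weeks, 276 to 1800 CPM at 8 weeks and 23.1 to 319 CPM in aged uteri. Their part in the fall of Loxl2 and Plod2 was not tested. Of 9 fibroblast and stroma markers none was called against 8 weeks and 1 fell against 5 weeks, and their summed level was 2154 to 6458 CPM at 5 weeks, 1856 to 7868 CPM at 8 weeks and 4040 to 8690 CPM in aged uteri. Of 8 smooth muscle markers none was called against 8 weeks and 2 rose against 5 weeks, with sums of 2074 to 14521 CPM, 1462 to 18669 CPM and 2679 to 25984 CPM at 5 weeks, at 8 weeks and in aged uteri. The 4 red blood cell markers listed rose against 8 weeks and none was called against 5 weeks, with sums of 29.1 to 156 CPM, 16.1 to 63.1 CPM and 51.8 to 281 CPM at these ages. Of 8 epithelial markers Foxa2, a gland factor, rose by 1.54 on the log2 scale against 8 weeks and by 1.72 against 5 weeks (limma adjusted p = 0.0122 and 0.00477), and no other was called. Their sums were 1951 to 7188 CPM at 5 weeks, 1709 to 7562 CPM at 8 weeks and 1539 to 5019 CPM in aged uteri. Of 6 macrophage markers listed, Csf1r rose by 0.95 and 1.15 (limma adjusted p = 0.0453 and 0.0145) and C1qa, against 5 weeks, by 1.05 (limma adjusted p = 0.0344), with sums of 348 to 1154 CPM at 5 weeks, 265 to 2371 CPM at 8 weeks and 688 to 2194 CPM in aged uteri. Of 3 adipocyte markers listed Lipe rose by 1.18 and 1.02 (limma adjusted p = 0.0118 and 0.0207), with sums of 30.0 to 699 CPM at 5 weeks, 19.8 to 767 CPM at 8 weeks and 42.0 to 1293 CPM in aged uteri, while Adipoq, Plin1, Cfd and Lep were not among the listed genes. The oviduct marker Ovgp1, the 1 listed of 4, rose by 3.40 against 5 weeks (limma adjusted p = 0.0334), and ran from 1.32 to 88.5 CPM at 5 weeks, 7.49 to 620 CPM at 8 weeks and 9.57 to 1290.2 CPM in aged uteri. None of the 7 endothelial or 6 mesothelial markers was called, nor was Sox9, the 1 cartilage and bone marker listed. The part of these markers in the results was not tested.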

How the data were processed

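Per the submitters' processing notes, fastp, STAR, featureCounts and edgeR were used with GRCm38, with no versions given. The authors deposited 1 table of CPM values per sample, each scaled to a sum of 1e+06. Every value was a whole multiple of 1 read within 1e-06, which gave the read totals. The lowest value in any library was 10 reads, so genes silent in a library were not analysed here. Of 21 files 1 held no numbers, and under the mapping by header aged replicate 3 has no column and was not analysed here. Libraries of 1 group differed well beyond sampling noise (lowest chi-square per gene 30.9).

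From the CPM, log2(CPM + 1) was fitted with limma 3.58.1 (R 4.3.3; lmFit, contrasts.fit and eBayes with a trend) to all 20 libraries with age and set as terms, and p-values were adjusted by Benjamini-Hochberg over 12791 genes. Fold changes are on the log2(CPM + 1) scale. The fit was also run on simulated data, with independent noise for each gene and the same age differences in both sets. Real libraries need not meet these settings, and the outcome is not used here. The count tests planned as alternatives were not run, and limma voom was added in their place. Named genes are the 10, at most 4 of a list (those called with the smallest adjusted p against 8 weeks, then against 5 weeks) and the 3 nearest of each gene by r. The 10 genes and all lists were chosen with earlier results of these data known. Coordinates are from GENCODE on GRCm38, and promoters from RefSeq.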

Additional observations from a re-analysis of the deposited data

Results flagged for a closer look

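In 7 of 30 groups (10 genes at 3 ages), 1 library stood apart from the rest of its age group by Dixon's test on CPM. Chance does so in about 1 in 20 groups where values are independent and normally spread. These groups hold both sets and the genes share libraries, so 7 of 30 cannot be set against that rate. Lox was highest in aged replicate 1, at 128 CPM, where the next aged library had 83.7 CPM, and in 8w replicate 1, at 232 CPM, where the next 8-week library had 128 CPM. Both are libraries of the earlier set. Without 8w replicate 1 the log2 fold change of Lox in aged against 8-week uteri was -0.18. Loxl2 was lowest in aged replicate 7, at 19.5 CPM, below 29.7 CPM in the next aged library, and without it the log2 fold change against 8 weeks was -1.46 (limma adjusted p = 0.00472). Plod1 was lowest in 8w replicate 6, at 96.9 CPM, below 124 CPM in the next 8-week library. Plod2 was highest in aged replicate 5, at 114 CPM, where the next aged library had 57.5 CPM, and without it the log2 fold change against 8 weeks was -1.33 (limma adjusted p = 0.00184). Plod2 was also highest in 5w replicate 4, at 265 CPM, where the next 5-week library had 137 CPM, and without it the log2 fold change of aged against 5-week uteri was -1.01 (limma adjusted p = 0.0106). Pcolce was highest in aged replicate 5 too, at 285 CPM, where the next aged library had 122 CPM.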

How the results depend on the processing

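Against 8 weeks 2 of the 10 genes were called, and this held with pseudocounts of 0.1 and 5, a mean CPM filter of 5, TMM or quantile scaling, no set term, limma voom and without both 5w replicate 3 and 8w replicate 3 (the last 2 settings were chosen after seeing the data). The count was 0 with the later set alone, 1 with the earlier set alone and 1 with columns attached by file, where Plod2 did not pass (log2 fold change -0.98, adjusted p = 0.0674), and 2 to 3 with 1 library left out. Against 5 weeks it was 0 with the later set alone, 2 with the earlier set alone (Loxl2 and Serpinh1), 4 by file (with Lox, adjusted p = 0.047, and Plod1, 0.0391) and 2 to 3 with 1 library left out. Of the 10, 5 differed between sets, where 58.7% of all genes did. The count was 3 by file and 3 to 6 with 1 library left out, the 3 without 8w replicate 1. The test of age by set called 1 gene by file. Over all genes, 2196 were called against 8 weeks and 969 with no set term, 3613 with the earlier set alone, 183 with the later set alone, 565 by file, and 1309 to 2617 with 1 library left out. The lowest of these was without aged replicate 1. Against 5 weeks 2825 were called and 1380 with no set term, 2614 with the earlier set alone and 523 with the later set alone. By file 2014 were called against 5 weeks, and 1982 to 3294 with 1 library left out. edgeR and DESeq2 on recovered reads were not run, because no listed value is below 10 reads and the recovered reads were therefore not treated as deposited counts. Of the genes called in the surrounding lists, 14 against 8 weeks and 19 against 5 weeks, 5 and 5 kept the call with no set term, 8 and 12 with the earlier set alone, 9 and 15 with the replicate block, and 7 to 14 and 9 to 19 with 1 library left out, and none turned its sign. Loxl3, not called, had -0.11 against 8 weeks with the later set alone. Causes of these changes were not tested.

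Replicate numbers were not taken to pair the samples, since not every same-numbered pair correlated above 0.1. In the later set 6 of 13 pairs did (range -0.505 to 0.279), and 1 of 14 libraries correlated best with its own number. In the earlier set, where the deviations of replicates 1 and 2 mirror each other, r was 0.104 between 8 and 5 weeks, 0.269 between aged and 5-week and -0.153 between aged and 8-week uteri. With the replicate block, 2 of the 10 genes were called against 8 weeks and 3 against 5 weeks, Lox being the third (log2 fold change -0.78, adjusted p = 0.00732), and 1637, 2413 and 0 genes in all against 8 weeks, against 5 weeks and between 8 and 5 weeks.

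Signs turned in values that did not pass the test. In aged against 8-week uteri, the earlier set alone gave 0.53 for P4ha1, 0.61 for P4ha2 and 0.48 for Pcolce, the later set alone 0.016 for Plod3, and P4ha1 was 0.0062 by file and 0.013 without both libraries of replicate 3. In aged against 5-week uteri, the earlier set alone gave -0.11 for Loxl1, 0.16 for P4ha2 and 0.028 for Pcolce, and the later set alone 0.021 for Plod3. Between 8 and 5 weeks, the earlier set alone gave -0.22 for Loxl2, -0.45 for P4ha1, -0.455 for P4ha2 and -0.45 for Serpinh1, and the later set alone 0.20 for Loxl1, 0.047 for Pcolce and 0.0059 for Plod2. By file these were 0.13 for Loxl1, -0.036 for Loxl2, -0.019 for P4ha2, -0.025 for Plod3 and -0.11 for Serpinh1. Without both libraries of replicate 3 they were 0.12 for Loxl1, -0.033 for Loxl2, -0.039 for Plod3 and -0.0059 for Serpinh1, and with TMM scaling -0.031 for Loxl2 and -0.040 for Plod3. With 1 library left out, the 8-week over 5-week values ran from -0.19 to 0.10 for Loxl1, -0.17 to 0.18 for Loxl2, -0.16 to 0.12 for Plod2, -0.058 to 0.090 for Plod3 and -0.029 to 0.25 for Serpinh1. Aged against 5 weeks ran from -0.041 to 0.24 for Loxl1 and -0.30 to 0.047 for P4ha2, and aged against 8 weeks from -0.15 to 0.14 for P4ha1 and -0.45 to 0.047 for Pcolce. The later over earlier set values of Plod1 were 0.17 with TMM and 0.27 with quantile scaling, and -0.18 to 0.059 with 1 library left out, and that of Serpinh1 was -0.20 with quantile scaling.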
